A study of Ogataea parapolymorpha with 16 samples.

Results

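In the yeast Ogataea parapolymorpha, 72 genes had transcript levels that stepped down with every decrease in specific growth rate, in both a complex I mutant and its wild type. The 72 were selected on the means of replicate cultures, expressed as log2 (normalized FPKM + 1). In both strains the mean had to be highest in batch culture, lower at 0.1 per h, lower again at 0.025 per h and lowest in the retentostat. The retentostat mean further had to lie at least 1.5 below batch and at least 1 below 0.1 per h in both strains, and less than 1 below 0.025 per h in at least 1 strain. Of 5408 genes in the files, 5232 had a mean of at least 10 in some group and entered the rule. The order alone was met by 295 genes, the order with both fall sizes by 97, and all conditions by 72, which is 1.38% of the genes tested. All 72 are protein-coding genes. Since the rule used the levels in every culture, the stepwise decrease is a description and carries no test. The comparison of the strains within a culture was not a condition of the rule and was tested. It uses the same values, however, and a gene had to be highest in batch in both strains to be picked. The shares of all genes set beside it were not selected in that way.

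Transcripts came from strain IMD010, which carries a 1-nucleotide insertion that shifts the reading frame of NUBM (HPODL_04625), the gene of the NADH-binding subunit of respiratory complex I, and from its parent CBS11895, a wild type. The study sequenced the genome of IMD010 and reported no other mutation in coding sequences. IMD010 is still a single engineered strain, so that whatever else sets it apart from CBS11895 cannot be told apart from the mutation. Each strain was grown on glucose with 2 independent cultures in each of 4 conditions, 16 samples in 8 groups. The conditions were retentostat cultures sampled after 23 days at about 0.001 per h, glucose-limited chemostats at 0.025 per h and at 0.1 per h, and batch cultures at 0.37 per h. Batch cells had glucose in excess whereas all other cultures were glucose limited. Retentostat cultures retained their cells, were older, received a different feed, and were titrated with ammonium hydroxide where the sampled batch and chemostat cultures received potassium hydroxide. They were started from chemostats at the same dilution rate of 0.025 per h that had a richer glucose feed than the sampled chemostats, so that growth rate cannot be told apart from these differences. The mutation leaves the transcript in place, so the NUBM level does not check the labels; it was 2928 and 2804 FPKM in IMD010 and 2353 and 2207 FPKM in CBS11895 retentostats, for example.

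When a yeast divides more slowly, it needs fewer building blocks per unit of time: amino acids and nucleotides, S-adenosylmethionine for methylation, polyamines that bind RNA and DNA, and the mannoproteins and glucans of the daughter cell wall. Genes for ribosomes and for these precursors are known in baker's yeast to follow growth rate. A chemostat holds growth at the rate of medium supply, and a retentostat with cell retention approaches zero growth while cells stay alive, which allows growth rate to be studied as a graded variable.

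Sequencing gave between 16522183 and 20898682 reads per sample assigned to genes. The deposited FPKM of a gene can be compared between samples, but its length term is not the annotated length, so levels are compared here within a gene and never between genes. Duplicate cultures lay close together in 7 of the groups, with a standard deviation over all genes of 0.135 to 0.281 for the log2 difference between duplicates. The IMD010 cultures at 0.1 per h stood apart, with 0.888. For the 72 genes, replicate 1 of this pair exceeded replicate 2 by a median of 0.57 on the log2 scale and was the higher one for 56 genes. Replicate 1 was also above the lower batch culture for 20 of the genes and replicate 2 for 0. With replicate 1 left out the rule picked 89 genes, 67 of them among the 72, and with replicate 2 left out it picked 48 genes, 47 of them among the 72. Poly(A) RNA per cell was not measured, so all values are shares of the messenger RNA pool.

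Together the 72 genes took 0.340 and 0.334% of reads in IMD010 and 0.364 and 0.354% in CBS11895 retentostats. The share was 0.702 and 0.681% in IMD010 and 0.539 and 0.499% in CBS11895 at 0.025 per h, and 1.69 and 1.41% in IMD010 and 1.25 and 1.23% in CBS11895 at 0.1 per h. Batch cultures devoted 2.61 and 2.60% of reads to these genes in IMD010 and 3.73 and 3.57% in CBS11895. In this sum the 2 strains were thus nearly equal in the retentostat, IMD010 was ahead in both chemostats, and CBS11895 was ahead in batch. The sum leans on genes with many reads. In replicate 1 of the batch cultures, HPODL_00414 alone gave 73948 of 502153 reads in IMD010 and 135074 of 682809 reads in CBS11895. Over the 72 genes, the median log2 difference of retentostat minus batch was -2.56 in IMD010 and -3.23 in CBS11895.

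**Figure D1:**
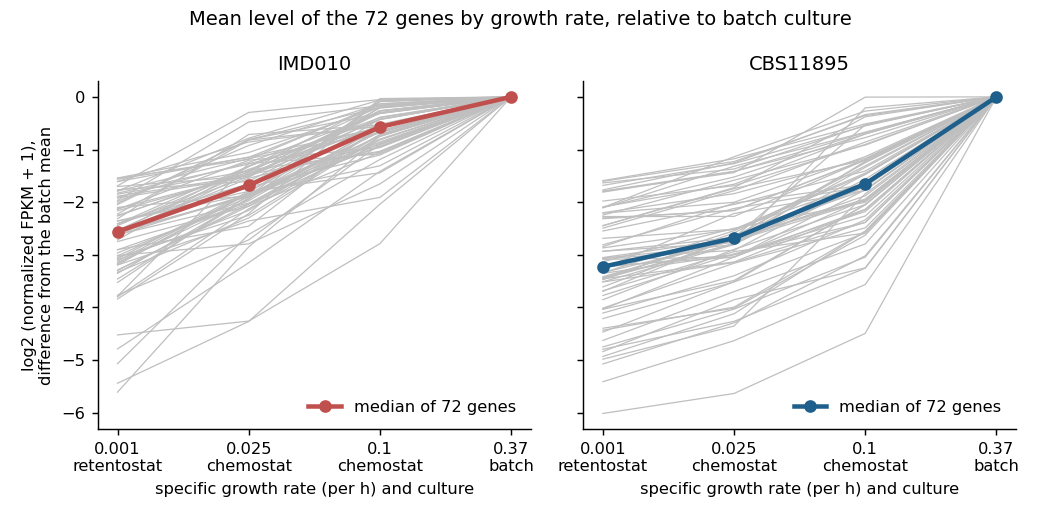
Mean log2 level of each of the 72 genes relative to batch culture (grey lines) with their median (coloured line), against the 4 specific growth rates from slow to fast, for IMD010 (left) and CBS11895 (right). The median reached -2.56 in IMD010 and -3.23 in CBS11895 retentostats, and the CBS11895 curve has its largest step between 0.1 per h and batch.

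The 3 steps did not contribute alike in the 2 strains. In IMD010, a median of 35.7% of a gene's batch to retentostat difference lay between 0.001 and 0.025 per h, 38.9% between 0.025 and 0.1 per h, and 21.8% between 0.1 and 0.37 per h. In CBS11895 the medians for the same steps were 19.1%, 32.7% and 52.3%. The step from 0.1 per h to batch was the largest of the 3 for 12 genes in IMD010 and for 52 genes in CBS11895, and 21 genes had the same largest step in both strains. These shares rest on the means that the rule used and were not tested. Those of IMD010 depend on its discordant pair at 0.1 per h. Those of CBS11895 depend on batch cultures in which levels varied with gene length. There, genes up to 300 bp lay at a median of -2.154 and -1.463 log2 units from their mean over all samples, and genes over 3000 bp at 0.599 and 0.47. The step from 0.025 per h to the retentostat reached a full log2 unit for 35 genes in IMD010 and for 2 in CBS11895, bearing in mind that the rule allowed this in 1 strain only.

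**Figure D2:**
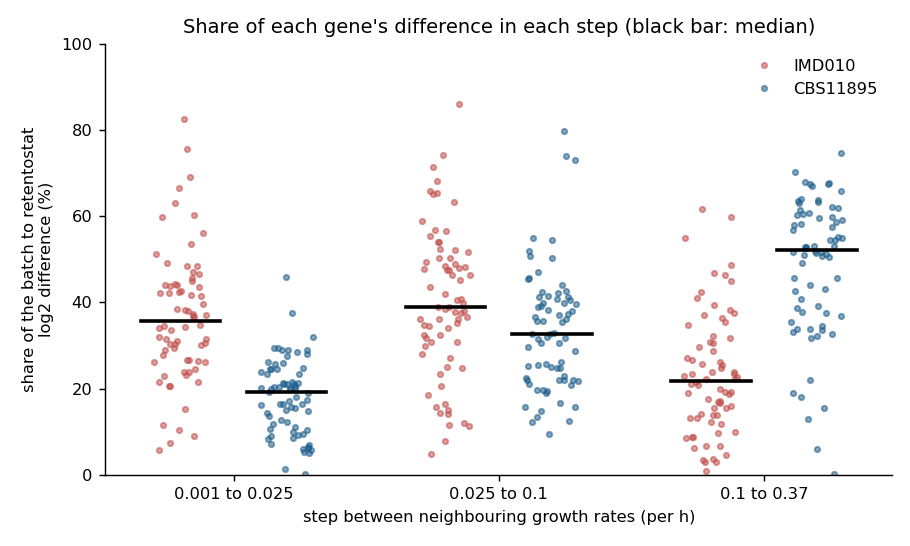
Share (%) of the batch to retentostat log2 difference that fell in each step between neighbouring growth rates, 1 point per gene, IMD010 left of CBS11895, with the median as a black bar. In the step from 0.1 to 0.37 per h the medians were 21.8% in IMD010 and 52.3% in CBS11895.

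Across steps, duplicate cultures of neighbouring conditions did not overlap in any of the 3 steps for 45 genes in IMD010 and 63 in CBS11895. The shares of all genes tested were 4.38% in IMD010 and 7.3% in CBS11895. The rule had fixed the order of the means, so nothing is read from these counts. Cultures at 0.1 per h and in batch were separated for 52 genes in IMD010 (33.5% of all genes) and 71 in CBS11895 (46.2%), and those at 0.025 and 0.1 per h for 64 in IMD010 (32.3%) and 72 in CBS11895 (40.5%). The separation of the retentostat from 0.025 per h held for 71 genes in IMD010 (41.9%) and for 64 in CBS11895 (40.3%).

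Among the 25 genes with a product name in the sources used, 4 belong to amino acid synthesis, 3 to cell wall and glycosylation, 2 to nucleotide synthesis, 2 to membrane transport, 1 to DNA replication and 1 to mitochondrial ribosomes. The list of amino acid synthesis includes S-adenosylmethionine synthase (HPODL_00414, chromosome III, 431086-432273), which makes the main methyl donor of the cell from methionine and ATP. In IMD010 it had 5020.4 and 4832 FPKM in the retentostats, 10609 and 9781 FPKM at 0.025 per h, 48312 and 23601 FPKM at 0.1 per h and 67062 and 67006 FPKM in batch. The CBS11895 cultures had 4624 and 4764, 7812 and 8329, 19877 and 19117, and 158966 and 157144 FPKM in the same order. In IMD010 the batch mean was 13.6 times the retentostat mean and in CBS11895 it was 33.7 times, with no overlap between neighbouring conditions. The IMD010 cultures at 0.1 per h lay far apart from each other and both above those of CBS11895, whereas in batch both IMD010 cultures were below both CBS11895 cultures.

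Ornithine decarboxylase (HPODL_01600, chromosome VI, 833867-835168), the entry enzyme of polyamine synthesis, followed a similar course. From the retentostats over 0.025 and 0.1 per h to batch, the IMD010 cultures had 391 and 409, 1267 and 1262, 3793 and 1709, and 4632 and 4595 FPKM. Those of CBS11895 had 610.5 and 645, 1133 and 1135, 1846 and 1768, and 9708 and 10581 FPKM. Both retentostat cultures of IMD010 were below both of CBS11895, and so were both batch cultures. Saccharopine dehydrogenase (HPODL_00111), of the lysine pathway, and the sulfite reductase beta subunit (HPODL_01957), which reduces sulfite for methionine and cysteine synthesis, had smaller differences of -2.16 and -1.92 in IMD010 and -3.23 and -3.09 in CBS11895. Arginase (HPODL_00383), which cleaves arginine to ornithine and urea and so supplies the substrate of ornithine decarboxylase, lay just inside the threshold of 1 between 0.1 per h and the retentostat, with 1.02 in the strain with the smaller fall.

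The 2 genes of nucleotide synthesis act at different points of the pathway. The large chain of ribonucleoside-diphosphate reductase (HPODL_01654, chromosome VI, 916386-918974) makes deoxyribonucleotides for DNA. Levels in IMD010 were 54.2 and 43.0 FPKM in the retentostats, 144 and 159.5 FPKM at 0.025 per h, 725 and 661 FPKM at 0.1 per h and 711 and 708 FPKM in batch. In CBS11895 they were 61.0 and 67.8, 83.3 and 128, 676 and 614.6, and 725 and 766 FPKM. Its level hardly differed between 0.1 per h and batch, and a mean of 65.4% of its difference lay between 0.025 and 0.1 per h. Adenylosuccinate synthetase (HPODL_01444), of the adenine branch of purine synthesis, was instead spread evenly over the 3 steps, with 31.3%, 33.8% and 34.9% from the slowest to the fastest step as the mean of both strains, and its log2 difference of retentostat minus batch was -3.29 in IMD010 and -3.47 in CBS11895.

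A factor annotated for the initiation of DNA replication (HPODL_00535, chromosome III, 655068-657092) also decreased in steps. In IMD010 it had 60.8 and 52.4 FPKM in the retentostats, 100.4 and 94.5 FPKM at 0.025 per h, 214 and 231 FPKM at 0.1 per h and 362 and 346 FPKM in batch. The CBS11895 cultures had 61.1 and 53.4, 77.0 and 112, 242 and 247, and 611 and 629 FPKM in the same order. The strains overlapped in the retentostats and at 0.025 per h, and in batch both IMD010 cultures were below both CBS11895 cultures. The mitochondrial 54S ribosomal protein MRPL1 (HPODL_01921), a part of the large subunit that translates mitochondrial messages, had differences of -1.76 in IMD010 and -2.31 in CBS11895, with a mean of 7.94% of it between 0.001 and 0.025 per h.

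Uptake of nitrogen is represented by the ammonium transporter MEP1 (HPODL_00379, chromosome III, 380088-381521), a plasma membrane permease in baker's yeast. From the retentostats over 0.025 and 0.1 per h to batch, the IMD010 cultures had 247 and 284, 566 and 521, 1989 and 1191, and 2685 and 2676 FPKM. Those of CBS11895 had 211 and 185, 469 and 301, 1133 and 1002, and 4715 and 4089 FPKM. Retentostat values were lowest in both strains, in the cultures that were titrated with ammonium hydroxide, and the part of that ammonium in the MEP1 level was not tested. The permease annotated for gamma-aminobutyrate (HPODL_00268) had a difference of -3.12 in IMD010 and -3.46 in CBS11895.

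The genes of cell wall and glycosylation differed in the size of their decrease. Mannosyltransferase KTR1 (HPODL_01659, chromosome VI, 925493-926575) belongs to a family that adds mannose to secreted proteins in baker's yeast. Levels in IMD010 were 18.4 and 16.4 FPKM in the retentostats, 84.1 and 115 FPKM at 0.025 per h, 370.4 and 168 FPKM at 0.1 per h and 633 and 598 FPKM in batch. In CBS11895 they were 55.4 and 50.6, 98.6 and 113, 159 and 164, and 1437 and 1652 FPKM. These values rest on 9 and 8 reads in IMD010 and 29 and 24 reads in CBS11895 retentostats, against 389 and 396 reads in IMD010 and 681 and 784 reads in CBS11895 batch cultures. GAS5 (HPODL_01343), a glucanosyltransferase that remodels cell wall beta-glucan, had differences of -3.17 in IMD010 and -4.03 in CBS11895. Another mannosyltransferase (HPODL_00504) had only -1.97 in IMD010 and -1.81 in CBS11895. Outside this list, the gene named sporulation-specific protein 2 (HPODL_00385) had -3.80 in IMD010 and -4.03 in CBS11895.

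Peroxiredoxin TSA1 (HPODL_00527, chromosome III, 643569-644156) reduces peroxides with thioredoxin and aspartate aminotransferase 1 (HPODL_01819, chromosome VI, 1207973-1209283) exchanges amino groups between aspartate and glutamate. Both were singled out after their values were seen, for their strain difference. In IMD010, TSA1 had 76.2 and 76.1 FPKM in the retentostats, 196 and 172 FPKM at 0.025 per h, 521 and 303 FPKM at 0.1 per h and 733 and 784 FPKM in batch. The CBS11895 cultures had 41.3 and 45.0, 85.4 and 80.5, 161 and 152, and 975 and 1206 FPKM in the same order. The aminotransferase had 754 and 719, 1691 and 1242, 4203 and 3576, and 5203 and 6304 FPKM in IMD010, against 303 and 354, 534 and 357, 1183 and 1246, and 6841 and 7392 FPKM in CBS11895, in the same order of cultures. For each gene, IMD010 cultures were all above CBS11895 cultures at the 3 lower growth rates, whereas in batch CBS11895 was above IMD010.

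**Figure D3:**
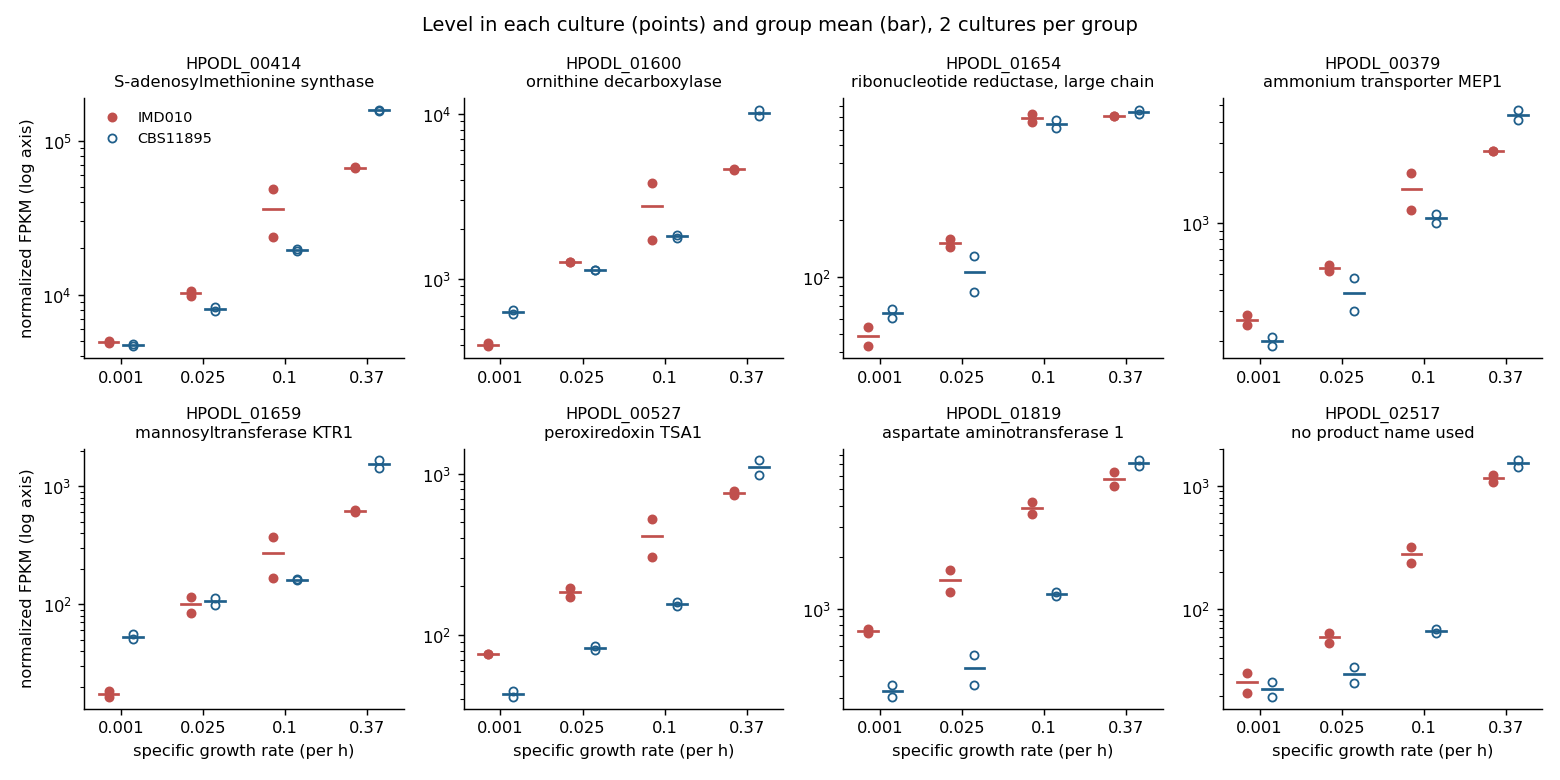
Normalized FPKM of 8 genes in each culture (points, log axis) with the group mean (bar), by specific growth rate from slow to fast, IMD010 (filled) left of CBS11895 (open). Ribonucleoside-diphosphate reductase (HPODL_01654) levels off above 0.1 per h, and for S-adenosylmethionine synthase (HPODL_00414) the IMD010 points lie above those of CBS11895 at 0.1 per h and below them in batch.

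Several of the largest differences belong to genes for which no product name was used. The largest, by the strain with the smaller fall, was that of HPODL_02517 (chromosome VII, 226973-228181). From the retentostats over 0.025 and 0.1 per h to batch, the IMD010 cultures had 30.4 and 20.8, 53.4 and 64.7, 322 and 238, and 1076 and 1234 FPKM. Those of CBS11895 had 19.5 and 25.6, 33.8 and 25.5, 68.8 and 64.4, and 1608 and 1433 FPKM. Its retentostat minus batch difference was -5.44 in IMD010 and -6.01 in CBS11895, and the strains are farthest apart at 0.1 per h. HPODL_04374 had -4.79 in IMD010 and -4.93 in CBS11895, and HPODL_02872 had -3.79 in IMD010 and -4.75 in CBS11895. The gene with the largest share of its difference above 0.1 per h, a mean of 64.8% over the strains, was the lactam utilization protein lamB (HPODL_01976), with differences of -4.52 in IMD010 and -4.79 in CBS11895 and 9 to 25 reads in the retentostats. HPODL_02497, a long gene of 6549 bp, had the largest share between 0.025 and 0.1 per h, 69.5%, and HPODL_02609 the largest share between the retentostat and 0.025 per h, 54.5%.

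The second largest difference by the same measure, that of HPODL_05072, has little depth behind it. It had 0 and 1 reads in IMD010 and 3 and 0 reads in CBS11895 retentostats, and 34 and 36 reads in IMD010 and 42 and 47 reads in CBS11895 batch cultures. Values of 0 to 3 reads cannot be told from a floor of 3 reads per library, and no fold is given for this gene. In all, 58 of the 72 genes had at least 100 reads in every sample and 3 had under 10 reads in at least 1 sample. Just inside the threshold of 1.5 between batch and retentostat were HPODL_03988 and HPODL_05164, with 1.54 and 1.55 in the strain with the smaller fall, and just outside were HPODL_03119 and HPODL_01861, both with 1.48. For the threshold of 1 between 0.1 per h and the retentostat, HPODL_04019 was inside with 1.02, and HPODL_05047 and HPODL_01925 were outside with 0.99.

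Whether the wider pathways were also lower in the retentostat than at 0.1 per h was examined in lists built from words in product names, which cover 1999 of the 5232 genes. Names were used for only part of the locus numbers, so the lists leave out genes of the same pathways that had no name here. A gene was counted as lower when it passed an FDR under 0.05 in both strains in limma (retentostat minus 0.1 per h, Benjamini-Hochberg adjusted over all genes). Over all genes tested, 15.4% were lower and 14% higher. The 72 genes were all lower, as the rule demanded, and are left out of the counts that follow, after which 733 of 5160 genes or 14.2% were lower.

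DNA replication had 7 of its other 16 genes lower and 0 higher, with a median log2 difference of -0.64 in IMD010 and -0.67 in CBS11895. Among them were the DNA primase small subunit (HPODL_00382), which lays down primers, with -1.68 in IMD010 and -1.66 in CBS11895, and replication factor C subunit 3 (HPODL_02081), a loader of the sliding clamp, with -1.37 in IMD010 and -1.43 in CBS11895. The helicase subunits MCM4 (HPODL_00647) and MCM7 (HPODL_01197) had -0.90 and -0.99 in IMD010 and -0.92 and -1.001 in CBS11895. Of 8 genes named as histones, 5 were lower and 0 higher, with medians of -1.80 in IMD010 and -1.92 in CBS11895. Set against batch in place of 0.1 per h, however, the histone median was -2.12 in IMD010 and 0.95 in CBS11895. Strain differences in batch varied with gene length, and the part of length in these 2 medians was not tested. No gene named as a histone is among the 72, but 47 of the 72 lie outside the locus numbers for which names were used.

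Amino acid synthesis had 7 of 28 other genes lower and 1 higher. The lower ones include aromatic/aminoadipate aminotransferase 1 (HPODL_01516), with -2.66 in IMD010 and -2.22 in CBS11895, and glutamate synthase (HPODL_00613), with -1.29 in IMD010 and -1.21 in CBS11895. The higher one, acetylornithine deacetylase (HPODL_00911), had 4.45 in IMD010 and 5.28 in CBS11895. Nucleotide synthesis had 1 of 11 other genes lower, cell wall and glycosylation 6 lower and 6 higher of 43, and membrane transport 10 lower and 15 higher of 82. Mitochondrial ribosomal proteins had 6 of 19 lower and 0 higher, although their median was 0.37 in IMD010 and -0.40 in CBS11895.

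No gene named as a cytosolic ribosomal protein was among the 72, of which 47 lie outside the locus numbers for which names were used. Of the 29 genes so named, 0 were lower in both strains while 4 were higher, with medians of 0.72 in IMD010 and 0.16 in CBS11895. For ribosome biogenesis, 5 of 58 genes were lower and 1 higher, with medians of 0.36 in IMD010 and -0.19 in CBS11895. Against batch, the 2 strains had medians of opposite sign in these lists: -0.83 in IMD010 and 0.43 in CBS11895 for cytosolic ribosomal proteins, -0.88 in IMD010 and 0.21 in CBS11895 for ribosome biogenesis, and, with MRPL1 included, -0.79 in IMD010 and 0.36 in CBS11895 for mitochondrial ribosomal proteins. Over the whole transcriptome, genes up to 600 bp had a median strain difference of 1.14 in batch (IMD010 over CBS11895, log2). The part of gene length in the opposite signs was not tested. The shares in the lists were not tested against the background.

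On the chromosomes, 6 of the 72 genes lie within 10 consecutive annotated genes of chromosome III, from HPODL_00379 to HPODL_00388 (380088-395920, assembly Hansenula_2). They are MEP1, arginase (HPODL_00383), sporulation-specific protein 2 (HPODL_00385) and 3 genes of no stated function (HPODL_00384, HPODL_00387 and HPODL_00388). In this paragraph the retentostat minus batch differences are limma coefficients, which average log2 values of cultures and differ slightly from the differences of means given above. Those of the 6 ran from -2.06 to -3.86 in IMD010 and from -1.79 to -4.47 in CBS11895. The 4 genes in between did not meet the rule: HPODL_00380, a tyrosine phosphatase, had 0.37 in IMD010 and 1.27 in CBS11895, and HPODL_00382, the DNA primase subunit, had -1.47 in IMD010 and -1.57 in CBS11895. The stretch holds 6 of the 12 genes of the set on this chromosome. In all, 10 of the 72 genes had another of the 72 within 5 genes. This stretch was noticed after the values were seen and was not tested, and whether reads were counted by strand is not given in the sources used here. Chromosome VII held the most of the 72 genes, 17 or 1.94% of its tested genes, and chromosome II the fewest, 4 or 0.713%.

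**Figure D4:**
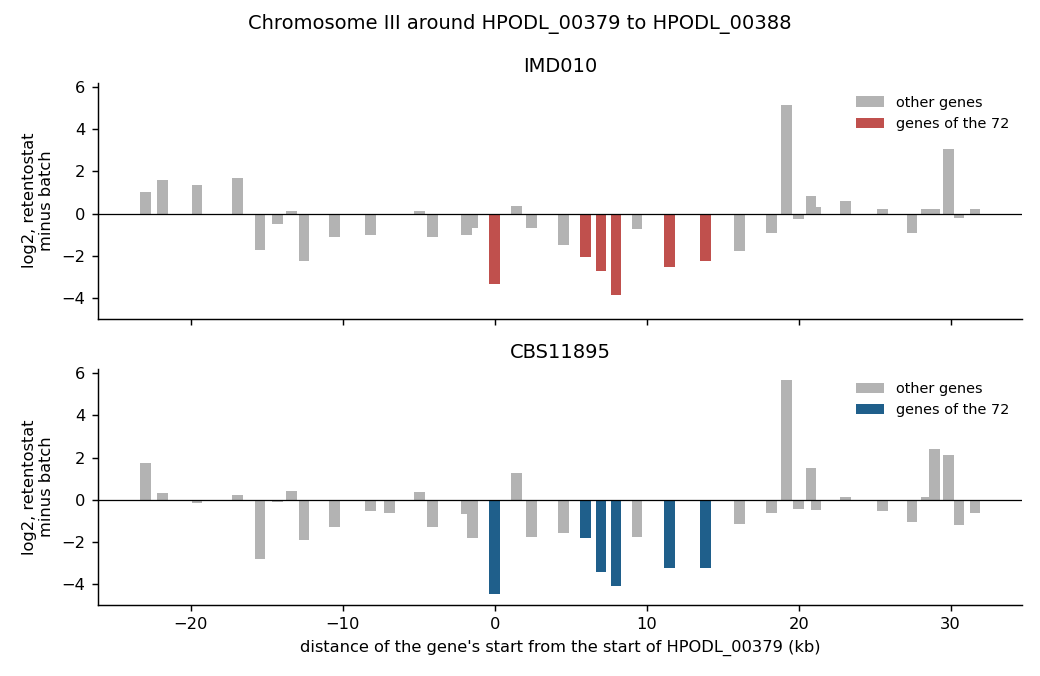
Log2 difference of retentostat minus batch (limma coefficient) for each tested gene around HPODL_00379 to HPODL_00388 on chromosome III, in IMD010 (top) and CBS11895 (bottom), against the distance of the gene's start from that of HPODL_00379 in kb. The coloured bars are the 6 genes of the 72, which range from -2.06 to -3.86 in IMD010 and from -1.79 to -4.47 in CBS11895.

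The comparison of the strains within each culture was not a condition of the rule, although it uses the same values. It asks whether loss of functional complex I changes these levels at a given growth rate. The rule had picked genes that were highest in batch in both strains, whereas the background of all genes was not picked in this way. The part of that choice in the batch counts was not tested. In batch, 48 of the 72 genes (66.7%) were lower and 1 (1.39%) was higher in IMD010 than in CBS11895 at an FDR under 0.05 (limma), against 41.6% lower and 31.3% higher of all genes tested. The median log2 fold change was -0.73 for the 72 genes and -0.17 for all genes, and 64 of the 72 were negative. Without rescaling of the deposited values, 30 were lower and 5 higher, against 29.5% lower and 38.6% higher of all genes, with medians of -0.41 for the 72 genes and 0.13 for all genes. The study's stricter thresholds (FDR under 0.001 in limma and a log2 fold change beyond 2 in either direction) were passed by 0 of the 72 in every culture, against 0.134% of all genes in the retentostat, 0.0191% at 0.025 per h, 0.0765% at 0.1 per h and 7.22% in batch. In batch, 51 of the 72 had an unadjusted p under 0.05, against 75% of all genes. Both IMD010 batch cultures were below both CBS11895 batch cultures for 58 of the 72 genes and above them for 4, against 51.2% and 39.5% of all genes.

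HPODL_03578 had the largest decrease in batch that separated the strains, with 1796 and 1689 FPKM in IMD010 and 4689 and 4327 FPKM in CBS11895. Its log2 fold change was -1.37 (SE 0.22, adjusted p = 0.00031, limma). S-adenosylmethionine synthase (HPODL_00414) had -1.24 (SE 0.24, adjusted p = 0.00108, limma), KTR1 (HPODL_01659) -1.32, ornithine decarboxylase (HPODL_01600) -1.14 and GAS5 (HPODL_01343) -1.08. The 1 gene that was higher in IMD010 was HPODL_02901, with 3814 and 3714 FPKM in IMD010 and 2661 and 2884 FPKM in CBS11895, a log2 fold change of 0.44 (SE 0.11, adjusted p = 0.00363, limma). Ribonucleoside-diphosphate reductase (HPODL_01654) and adenylosuccinate synthetase (HPODL_01444) both had -0.07 and did not pass.

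In CBS11895 batch cultures, genes up to 300 bp lay at a median of -2.154 and -1.463 log2 units from their mean over all samples. In IMD010 batch cultures these medians were -0.09 and -0.055, and in the chemostats and retentostats they ran from -0.666 to 1.118. Genes over 3000 bp had 0.599 and 0.47 in CBS11895 and 0.119 and 0.062 in IMD010 batch cultures. The cause was not tested. The strain difference in batch varied with gene length over the whole transcriptome. The median of all genes was 1.14 up to 600 bp, 0.04 from 600 to 1200 bp, -0.48 from 1200 to 2400 bp and -0.51 above that. The 72 genes, whose median length was 1306.5 bp where that of all genes was 1209 bp, had medians of -0.52, -0.74, -0.79 and -0.61 in the same classes, with 3, 25, 32 and 12 genes. After a smooth trend on length was removed from each sample, 44 of the 72 were lower and 3 higher in IMD010, against 42.3% lower and 29.3% higher of all genes, and the median was -0.53 for the 72 genes and -0.21 for all genes.

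In the chemostats the median difference was positive. At 0.025 per h, 6 of the 72 (8.33%) passed as higher and 0 as lower in IMD010, against 1.03% higher and 0.593% lower of all genes, with medians of 0.32 for the 72 genes and -0.02 for all genes. At 0.1 per h, 4 (5.56%) passed as higher and 0 as lower, against 2.24% higher and 1.11% lower of all genes, with medians of 0.34 for the 72 genes and 0.015 for all genes. The median of the 72 genes at 0.1 per h was 0.058 without replicate 1 of IMD010 and 0.68 without replicate 2. An unadjusted p under 0.05 was reached by 20 of the 72 at 0.025 per h and by 28 at 0.1 per h, against 14.2% of all genes at 0.025 per h and 40.4% at 0.1 per h. At 0.025 per h both IMD010 cultures were above both CBS11895 cultures for 47 of the 72 and below them for 4, against 29.6% and 33.4% of all genes. The counts at 0.1 per h were 36 above and 9 below, against 25.5% and 29.5% of all genes. The IMD010 pair at 0.1 per h widens the spread that all comparisons share: with both of its cultures left out, 34 of the 72 (47.2%) passed as higher and 1 as lower at 0.025 per h, against 13% higher and 12.5% lower of all genes. Other omissions lowered the counts: at 0.025 per h, 1 to 3 genes passed without one of the cultures compared and 2 without a CBS11895 culture at 0.1 per h or an IMD010 batch culture. At 0.1 per h, 2 passed without either CBS11895 culture. Without replicate 1 of IMD010, 4 passed as higher and 0 as lower, against 2.2% higher and 1.03% lower of all genes, and 46 passed as higher and 7 as lower without replicate 2 of IMD010, against 39.8% higher and 38.4% lower of all genes, which rests on a single IMD010 culture at that rate.

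Aspartate aminotransferase 1 (HPODL_01819) had log2 fold changes of 1.16 in the retentostat (SE 0.20, adjusted p = 0.0109, limma), 1.73 at 0.025 per h (adjusted p = 0.00147) and 1.67 at 0.1 per h (adjusted p = 0.00213), and passed in all 3. The call in the retentostat was lost without any 1 of the 4 retentostat cultures (adjusted p between 0.0663 and 0.109, limma). Peroxiredoxin TSA1 (HPODL_00527) passed at 0.025 per h with 1.14 and at 0.1 per h with 1.34, and HPODL_02628 likewise with 0.96 and 1.09. Neither passed at 0.025 per h without any 1 of the 4 cultures compared, nor at 0.1 per h without either CBS11895 culture, and at 0.025 per h they also missed the threshold without some cultures of other conditions. HPODL_02517 had the largest value at 0.1 per h, 2.04 (SE 0.22, adjusted p = 0.00119, limma), and like the other genes named here it did not pass at 0.1 per h when just the 4 samples compared were fitted (adjusted p = 0.579, limma). HPODL_02872 had the largest at 0.025 per h, 1.75 (SE 0.32, adjusted p = 0.0236, limma), with 8.14 and 13.6 FPKM in IMD010 and 2.45 and 2.42 FPKM in CBS11895. It did not pass with 1 of 3 of these 4 cultures left out.

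In the retentostat, 2 of the 72 genes were higher and 2 lower in IMD010 (2.78% each), against 1.85% higher and 2.08% lower of all genes, with medians of -0.08 for the 72 genes and -0.003 for all genes. HPODL_02549 had 260 and 274 FPKM in IMD010 and 83.1 and 108 FPKM in CBS11895, a log2 fold change of 1.48 (SE 0.24, adjusted p = 0.00723, limma). KTR1 (HPODL_01659) was lower, with -1.56 (SE 0.29, adjusted p = 0.0131, limma), and mannosyltransferase HPODL_00504 was lower with -0.73. An unadjusted p under 0.05 was reached by 21 of the 72, against 15.2% of all genes. Both IMD010 retentostats were above both of CBS11895 for 16 of the 72 and below them for 28, against 34.7% and 34.6% of all genes. Leaving out both IMD010 cultures at 0.1 per h gave 7 higher and 13 lower, against 11.5% higher and 12.8% lower of all genes, whereas leaving out a retentostat culture gave 0 or 1 calls. KTR1 did not pass without any 1 of the 4 retentostat cultures, with adjusted p between 0.0773 and 0.112 (limma), HPODL_00504 did not pass without any 1 of them either, and HPODL_02549 did not pass without 1 of 3 of them.

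**Figure D5:**
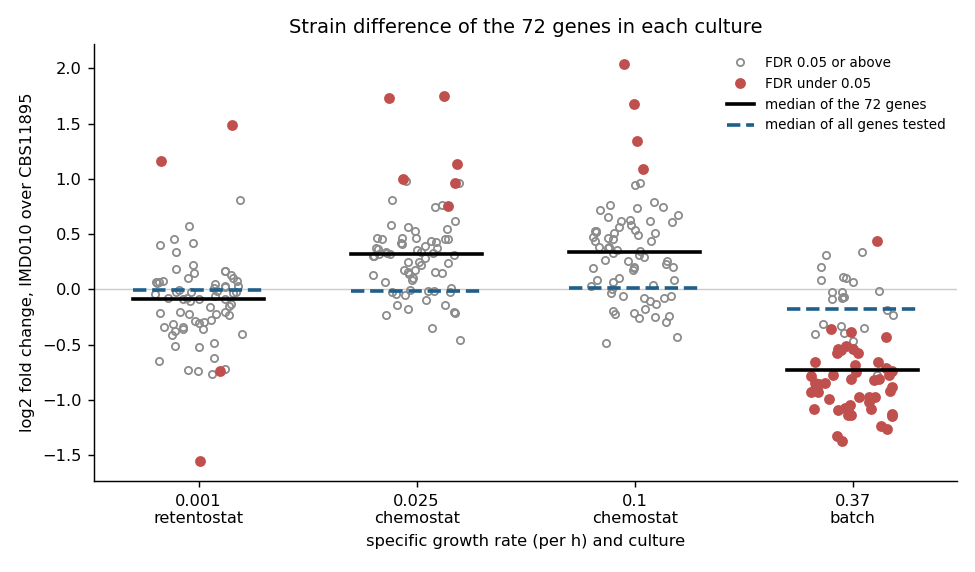
Log2 fold change of IMD010 over CBS11895 for each of the 72 genes in each culture, ordered from slow to fast growth, with genes at an FDR under 0.05 (limma) filled. The median of the 72 genes (black bar) was -0.08, 0.32, 0.34 and -0.73 from the retentostat to batch, and that of all genes tested (dashed) -0.003, -0.017, 0.015 and -0.17.

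Whether the strain difference itself changed between cultures was not tested, because such a contrast is made of the decreases from batch that the rule used. The medians in the plot of strain differences are to be read side by side, as a description.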

How the data were processed

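Poly(A) RNA from 16 cultures (2 strains, 4 conditions, 2 independent cultures each, grouped by the labels) was analysed. The authors aligned reads with STAR 2.5.3a to the CBS11895 assembly, removed ambiguous reads, counted with HTSeq and deposited FPKM values. The whole reads behind each value were recovered for 5400 genes and used for depth. FPKM were divided by median-of-ratios factors and tested as log2 (value + 1) with limma 3.58.1 in R 4.3.3, in 1 fit of 8 group means, with Benjamini-Hochberg adjustment over 5232 genes. The fit was also run on simulated data in which each gene had the same spread in all groups. Those data left out the wider spread of the IMD010 pair at 0.1 per h, so no conclusion is drawn from them. The members, lists and tests were chosen with earlier results of these data known. Named genes are the 10 largest falls, the leading members of each list, the most extreme strain differences, the extreme shares per step and the genes next to each threshold. Other genes named in the text were chosen after their values were seen. Gene names came from the study's supplementary annotation and were used for only part of the locus numbers, and positions came from RefSeq. Promoter motifs were not analysed here. Alternatives were other scalings, pseudocounts, filters, removal of a length trend (span 0.3), a replicate block, fits of 4 samples and omission of each culture. Omission of both IMD010 cultures at 0.1 per h was chosen after seeing the data.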

Additional observations from a re-analysis of the deposited data

Results flagged for a closer look

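For the 6 genes named as the most extreme strain difference in a culture, the difference (IMD010 minus CBS11895, log2) in a slower culture ran opposite to that in batch. In each case both cultures of IMD010 lay on 1 side of both cultures of CBS11895. The pattern was not particular to these 6: S-adenosylmethionine synthase (HPODL_00414) had 0.79 at 0.1 per h and -1.24 in batch, likewise without overlap. Of all 72 genes, 47 had both IMD010 cultures above at 0.025 per h and 58 had both below in batch. The shares of all genes were 29.6% and 51.2%. Whether the differences differed from each other was not tested, since they are built from the means that chose the genes. HPODL_02549 had 1.48 in the retentostat, 0.96 at 0.025 per h and 0.96 at 0.1 per h, beside -0.92 in batch. HPODL_02872 had 1.75 at 0.025 per h and 0.94 at 0.1 per h, beside -0.97 in batch, and HPODL_02517 had 0.98 at 0.025 per h and 2.04 at 0.1 per h, beside -0.40 in batch. HPODL_03578 had 0.22 at 0.025 per h and 0.52 at 0.1 per h, beside -1.37 in batch, and KTR1 (HPODL_01659) had 0.62 at 0.1 per h, beside -1.32 in batch. HPODL_02901 had the reverse, -0.09 in the retentostat beside 0.44 in batch. All share the batch cultures, in which strain differences vary with gene length, and those at 0.1 per h rest on the discordant IMD010 pair. The part of either in these values was not tested.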

How the results depend on the processing

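The count of the 72 genes that differed between the strains in batch (49) stayed between 35 and 57 when single cultures were left out. The study's thresholds gave 0 in every culture. Counts given here without a share of all genes describe how calls depend on the setting and are not read as a result about the 72 genes. In the retentostat, 4 genes passed, 8 without rescaling of the deposited values, and 20 when just the 4 samples compared were fitted or both IMD010 cultures at 0.1 per h were left out. Leaving out both of these cultures also moved the retentostat calls over all genes, from 1.85% higher and 2.08% lower to 11.5% higher and 12.8% lower. At 0.025 per h, 6 passed, 13 without rescaling, 15 in the fit of 4 samples and 35 without both of those cultures. At 0.1 per h, 4 passed, 7 without rescaling and 0 in the fit of 4 samples. Without rescaling, the genes lower in the retentostat than at 0.1 per h in both strains numbered 6 in place of 3 for nucleotide synthesis, 18 in place of 11 for amino acid synthesis and 22 in place of 12 for membrane transport, with the 72 genes included. Leaving out 1 culture at a time gave 48 to 89 genes meeting the rule, strain counts of 0 to 20 in the retentostat, 1 to 35 at 0.025 per h and 2 to 53 at 0.1 per h. The lists then ranged over 4 to 8 (mitochondrial ribosomes), 5 to 12 (DNA replication), 2 to 6 (nucleotide synthesis), 9 to 16 (amino acid synthesis), 7 to 14 (cell wall and glycosylation) and 9 to 22 (membrane transport), each highest when an IMD010 culture at 0.1 per h was left out. The cause of these shifts was not tested. The rule gave 73 genes with TMM scaling (70 of them among the 72), 95 without rescaling (61), 73 with a pseudocount of 0.1 (70), 61 with a pseudocount of 5 (59), 72 without a filter (72) and 71 after removal of the length trend (58). The labels state no pairing by replicate number. Deviations of same-numbered cultures correlated by -0.319 to 0.414, over 0.1 in 6 of 28 pairs of groups. With 2 cultures per group these correlations cannot decide whether the numbers pair the samples. A replicate block left the strain counts at 4, 6, 4 and 49 from the retentostat to batch, and at 4, 5, 5 and 49 with the length trend removed. Of the strain differences of single genes described in the report, 0 changed sign, but 50 results over all alternatives lost their call, and HPODL_02872 at 0.025 per h did so with a pseudocount of 0.1 (adjusted p = 0.0514, limma) and without single cultures (0.117 to 0.226). Without rescaling, the median strain difference of all genes changed sign in 3 of the cultures: 0.077 in place of -0.017 at 0.025 per h, -0.058 in place of 0.015 at 0.1 per h and 0.13 in place of -0.17 in batch. That of the 72 genes was -0.19, 0.41, 0.26 and -0.41 from the retentostat to batch and kept its sign.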
